A study of Mus musculus with 8 samples.

Results

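Knockdown of the cohesin subunit Smc1 was compared with knockdown of condensin in mouse embryonic stem cells, using 6 of the 8 expression arrays of the series. The 2 arrays titled as Smc1 knockdown were set against the 4 arrays titled as CapH2 or Smc2 knockdown, as the Smc1 group mean minus the mean of the CapH2 and Smc2 group means. The arrays were chosen by their titles alone, and no array of the GFP hairpin entered the test. All groups were V6.5 mouse embryonic stem cells, a hybrid line, infected with lentivirus that expresses a short hairpin RNA. Every culture, the controls included, received 8 µg/ml polybrene at infection and 4 µg/ml puromycin for 4 days, and 100 ng of total RNA taken on day 5 was labelled for 1 Affymetrix array. The CapH2 group held hairpins 3 and 4 against Ncaph2 and the Smc2 group hairpins 1 and 2 against Smc2, with 1 array per hairpin. The Smc1 group held 2 biological replicates of 1 hairpin against Smc1a, and the GFP hairpin, given below only as a level, likewise had 2 biological replicates. With 1 hairpin, effects on other transcripts cannot be told apart from effects of losing Smc1a.

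Cohesin and condensin are ring-shaped complexes built around pairs of SMC proteins. Cohesin, with the Smc1a and Smc3 pair, holds sister chromatids together and extrudes the loops that join enhancers to promoters, and in embryonic stem cells it occupies active genes with its loader Nipbl and the Mediator complex. Condensin uses the Smc2 and Smc4 pair, which condensin I and condensin II share, while CapH2 belongs to condensin II, the form that stays in the nucleus between divisions. The comparison therefore asks which transcripts distinguish knockdown of one complex from knockdown of the other, both delivered by the same vector and selection. How far each target was reduced differed, as given below.

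The arrays gave 1 intensity per probe set on a linear scale, and levels below are those intensities. Differences are on the scale of log2(intensity + 16), which understates changes of dim genes, and carry the limma standard error (SE). Levels of different genes were not compared, because each probe set has its own brightness. Of 18140 genes with a probe set, 12189 lay above the array median on at least 2 of the 6 arrays and were tested, and a gene was called at a limma adjusted p (Benjamini-Hochberg over these genes) below 0.05. Array medians lay between 62.2 and 74.2. Over the tested genes Pearson's r came to 0.977 between the Smc1 arrays and 0.935 to 0.964 between an Smc1 and a condensin array; genes are not independent replicates. The condensin arrays were closer across the groups (0.986 for CapH2 hairpin 3 with Smc2 hairpin 1, and 0.984 for CapH2 hairpin 4 with Smc2 hairpin 2) than within CapH2 (0.974) or within Smc2 (0.968). The difference between CapH2 hairpins 3 and 4 correlated at 0.42 over genes with that between Smc2 hairpins 1 and 2; the labels do not say what these arrays share, and the fit takes them as independent. RNA integrity, read as the ratio of 3' to 5' Actb control probe sets, gave 1.70 and 1.84 for Smc1, inside the condensin range of 1.67 to 2.18.

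A total of 616 genes were called, 5.05% of those tested: 458 were higher in the Smc1 knockdown (3.76%) and 158 lower (1.3%). The called genes that rose had a median difference of 1.29, and 353 of them rose at least 2-fold and 62 at least 4-fold. Those that fell had a median of -1.04, with 83 at least 2-fold and 8 at least 4-fold lower. Over all genes tested the median difference was 0.03, and both Smc1 arrays lay above all 4 condensin arrays in 2541 genes (20.8%) and below them in 1787 (14.7%). Centring each array on its median gave 332 higher and 201 lower genes, so that the share of higher calls was 62.3% in place of 74.4%. In the same fit, 143 genes separated Smc1 from CapH2 alone (106 higher, 37 lower) and 172 separated it from Smc2 alone (135 higher, 37 lower); both comparisons share the Smc1 arrays. Between CapH2 and Smc2, limma called 0 genes, and 121 had an unadjusted p below 0.05. That comparison did not call the condensin targets themselves, with CapH2 minus Smc2 at 1.37 for Smc2 (limma adjusted p = 0.416) and -1.40 for Ncaph2 (0.781), so its 0 calls do not show that the condensin knockdowns were alike. The filter was met through the Smc1 arrays alone by 24 of the higher genes, with every condensin array below its median, and through the condensin arrays alone by 8 of the lower genes. A gene of this kind had to differ to be tested, so no p is given for those named below.

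**Figure D1:**
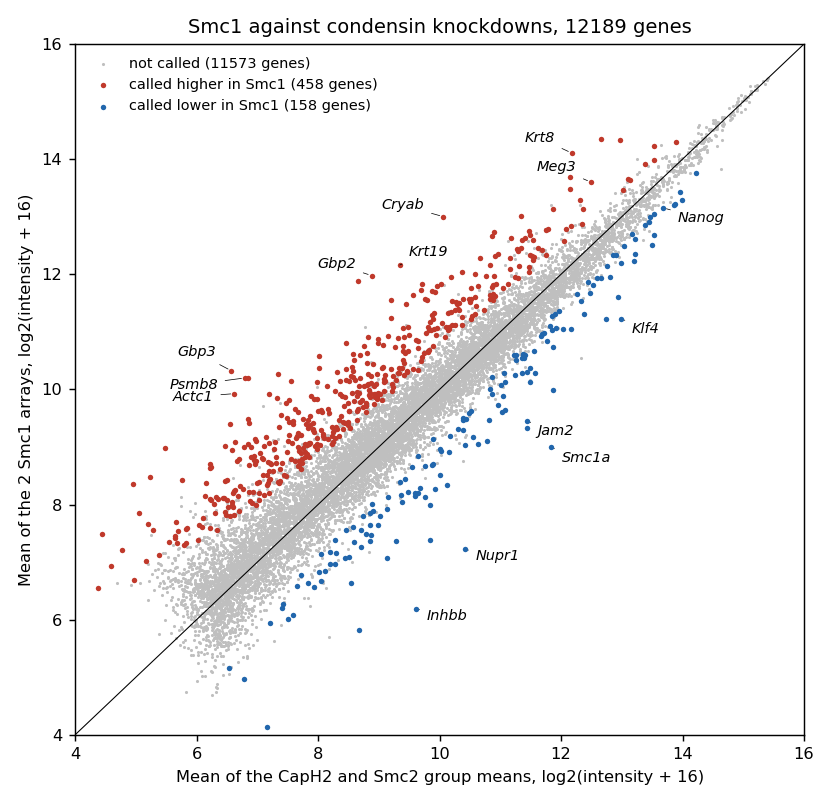
Each point is 1 of the 12189 genes tested, with the mean of the CapH2 and Smc2 group means on the x axis and the mean of the 2 Smc1 arrays on the y axis, both as log2(intensity + 16). Red points (458) were called higher and blue points (158) lower in the Smc1 knockdown; the line marks equal levels, and the gene furthest below it among those labelled is Inhbb, with Gbp3 the furthest above.

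The calls rest on both Smc1 replicates. In every called gene the Smc1 arrays lay on the same side of all condensin arrays, so leaving out an array could not change its sign. Without replicate 1 only Smc1a was called, and without replicate 2 the count was 5, among them Smc1a, Klf4, Inhbb and Myo1f; all 616 genes kept the sign of their difference in both cases. Leaving out CapH2 hairpin 3 gave 325 calls, CapH2 hairpin 4 gave 92, Smc2 hairpin 1 gave 744 and Smc2 hairpin 2 gave 986. The spread behind each p is pooled over the groups, so it mixes differences between hairpins with differences between replicates of 1 hairpin and measures only the spread between these arrays.

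**Figure D2:**
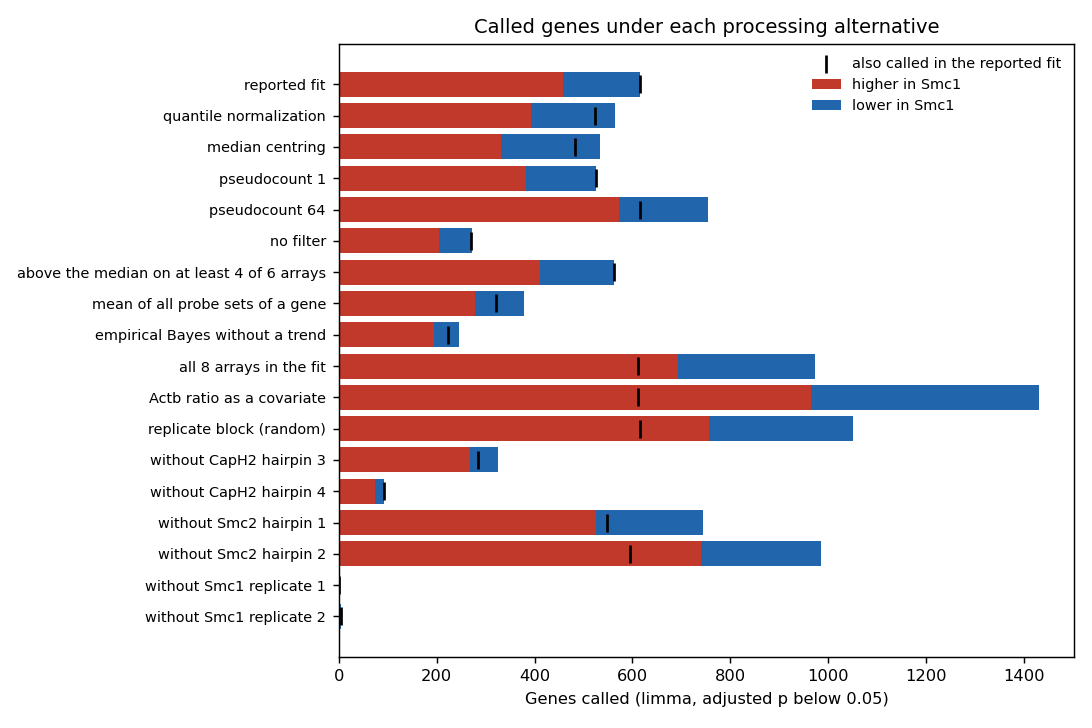
Genes called in the comparison of Smc1 with the condensin mean (x axis, limma adjusted p below 0.05) in the reported fit and under each of 17 alternatives (y axis), split into higher (red) and lower (blue). The black mark gives how many of them were also among the 616 reported; the bars run from 1 without Smc1 replicate 1 to 1431 with the Actb ratio as a covariate.

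The targeted genes were measured first. Smc1a read 535 and 454 on the Smc1 arrays, against 3662 and 3840.1 with the CapH2 hairpins, 3427 and 3572 with the Smc2 hairpins and 4165 and 3662 with the GFP hairpin. Its difference was -2.84 (SE 0.151, adjusted p = 0.00065), which left 13.6% of the condensin level, and 21.4% and 29.0% on its other probe sets. Smc2 read 2234 and 2859 in its own knockdown, 6088 and 7094 with the CapH2 hairpins and 6466 and 6005 on the Smc1 arrays. Ncaph2 read 738 and 869.9 with the CapH2 hairpins, 1858 and 2452 with the Smc2 hairpins and 2170.1 and 2028 on the Smc1 arrays. Each target was thus lowest in its own knockdown, and since Smc2 and Ncaph2 are each reduced in only 1 condensin group, their differences from the condensin mean (0.61 and 0.67) missed the threshold (adjusted p = 0.0523 and 0.0683). The other probe sets gave -0.70 to 0.62 for Smc2, and 1.35, 0.71 and -0.22 for Ncaph2, the first of these at a mean of 2684 against 1502. In its own knockdown and with the GFP hairpin, Smc1a averaged 494 and 3914. In the same order, Smc2 averaged 2547 and 7951 and Ncaph2 804 and 2231. The targets were thus reduced to different extents, and which complex was targeted cannot be told apart from how far its target was reduced.

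Apart from Smc1a, 0 of the 18 tested genes of cohesin, its loader and its regulators were called. At an unadjusted p below 0.05, Smc1a included, 1 was higher and 4 lower. Their median difference was -0.17, and 6 of the 18 had both Smc1 arrays below all condensin arrays against 14.7% of all genes. The partner subunit Smc3 read 3074 and 3268 against 3279.7 to 3859.8 on the condensin arrays (-0.18, SE 0.135, adjusted p = 0.478), and the kleisin Rad21 differed by 0.08 (SE 0.105, adjusted p = 0.719). The nearest to the threshold were Stag1, a subunit that binds the ring, at 3217 and 2711 against 1599.7 to 1981 (0.70, SE 0.168, adjusted p = 0.0518), and Esco2, the S-phase acetyltransferase of Smc3, at 1550.3 and 2059.8 against 2629 to 4108 (-0.88, SE 0.231, adjusted p = 0.0679). In both, the Smc1 and condensin arrays did not overlap, as in 35.5% of all genes tested. The loader genes Nipbl and Mau2 differed by -0.03 and -0.04 and the release factor Wapl by -0.16. Of the 8 condensin subunits 0 were called by limma, with differences from -0.38 to 0.67 and 2, the targets, at an unadjusted p below 0.05. Ctcf, the insulator protein at which cohesin stops, read 3672 and 3389.7 against 4049 to 5299.5, below every condensin array but with a difference of -0.38 (SE 0.145) that missed the threshold (adjusted p = 0.178). Of 20 tested meiotic cohesin and germline genes 2 rose and 2 fell, against 3.76% higher and 1.3% lower over all genes. The kleisin Rec8 was among those that rose (576 and 656 against 245 to 363, difference 1.04, adjusted p = 0.03). Without the filter on low values, or without the intensity trend, 0 of the 20 were called higher and 1 lower.

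Genes that interferons induce were among the largest rises in the Smc1 knockdown. Interferon-gamma acts through Jak kinases and the factor Irf1, and the induced genes encode GTPases that attack intracellular parasites, the immunoproteasome that cuts peptides for MHC class I, and sensors of viral RNA. Of the 8 tested interferon-induced GTPases 6 rose and 0 fell, with a median of 2.38. Of 18 tested genes of the immunoproteasome and MHC class I, 9 rose and 0 fell (median 1.17), and of 52 tested antiviral interferon-stimulated genes and their regulators, 16 rose and 0 fell (median 0.65). The corresponding values over all genes were 3.76% higher, 1.3% lower and a median of 0.03. With either Smc1 replicate left out, 0 members of these 3 lists were called; the medians were then 2.02 and 2.90 for the GTPases, 1.10 and 1.16 for the immunoproteasome and MHC class I, and 0.72 and 0.57 for the antiviral genes, without replicate 1 and without replicate 2. Without CapH2 hairpin 4 the counts of higher genes were 4, 6 and 7. Of the antiviral genes, 7 met the filter through the Smc1 arrays alone, 4 of them called. Under the filter on at least 4 of 6 arrays 11 of 40 rose and their median was 0.37, while the GTPases had 6 of 7 (median 2.72) and the immunoproteasome and MHC class I 9 of 17 (1.22).

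The promoters of 2 of these GTPase genes are shown for the interferon-response motif that they carry close to the start of transcription. The sequences are RefSeq windows of 300 bases from 250 before to 50 after the start, on the build GRCm38.p6. Gbp3 lies on the plus strand at chr3:142559794-142560093, and Irgm1 on the minus strand at chr11:48871371-48871670. Capitals mark matches on either strand to the core of the interferon-stimulated response element, searched as GAAA, any 2 bases and GAAA again, which Irf factors bind; both windows hold 2 overlapping matches, the nearer one beginning 39 bases before the start in Gbp3 and 24 before it in Irgm1. Gbp3 has another RefSeq start further along the strand, whose window (chr3:142560106-142560405) holds 0 matches.
Gbp3: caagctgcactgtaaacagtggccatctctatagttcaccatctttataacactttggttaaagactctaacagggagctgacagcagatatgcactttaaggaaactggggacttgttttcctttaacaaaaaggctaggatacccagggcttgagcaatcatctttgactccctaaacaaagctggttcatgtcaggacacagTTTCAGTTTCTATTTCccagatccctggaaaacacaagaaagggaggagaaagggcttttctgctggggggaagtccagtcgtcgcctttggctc
Irgm1: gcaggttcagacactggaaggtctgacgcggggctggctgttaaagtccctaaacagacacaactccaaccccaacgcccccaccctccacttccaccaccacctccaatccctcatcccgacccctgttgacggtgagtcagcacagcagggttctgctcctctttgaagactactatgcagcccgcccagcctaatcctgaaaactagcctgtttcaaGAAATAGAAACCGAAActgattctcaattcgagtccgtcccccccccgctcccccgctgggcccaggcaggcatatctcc
The motif occurred in 3.99% of the 27025 genes with such a window. It occurred in 13 of the 26 called genes of the 3 lists that have a window (50%), in 25 of the 67 tested ones (37.3%) and in all 7 tested GTPase genes with one, of which 6 were called. Windows of genes called higher held it in 7.88% of genes and windows of genes called lower in 3.36%. A second motif, TTCNNNGAA, the palindrome that Stat dimers bind, occurred in 9.55% of all genes in 8 of the 26 (30.8%) and in 20 of the 67 (29.9%). A match is a description of the sequence and not evidence of binding.

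Gbp3, a guanylate-binding protein, had the largest rise of all called genes. It read 1787 and 895 on the Smc1 arrays, 148 and 37 with the CapH2 hairpins, 73.2 and 89.5 with the Smc2 hairpins, and 29.8 and 111 with the GFP hairpin. The difference was 3.75 (SE 0.455, adjusted p = 0.0129), and both Smc1 values were above all the others. Its relative Gbp2 read 5792 and 2783 against 283 to 639.8 on the condensin arrays (3.10, SE 0.394, adjusted p = 0.0129) and 336 and 342 with the GFP hairpin. Gbp7 followed at 1452 and 1031 against 95.4 to 224 (2.94). Irgm1, an immunity-related GTPase, read 1184 and 759 against 88.7 to 185 (2.72, SE 0.314, adjusted p = 0.0122), with 18.1 and 91.7 on the GFP arrays. Irgm2 (1.61) and Igtp (1.02) rose too. Guanylate-binding proteins are near copies of one another, and signal shared between their probe sets was not separated.

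The immunoproteasome rose through its 3 inducible catalytic subunits and its activator. Psmb8 read 1426 and 942 on the Smc1 arrays, 133 and 54.4 with the CapH2 hairpins, 121 and 90.5 with the Smc2 hairpins and 50.9 and 4.67 with the GFP hairpin, a difference of 3.40 (SE 0.336, adjusted p = 0.0113). Psmb10 read 3921 and 2744 against 771 to 1203 (1.76) and Psmb9 595 and 679 against 205 to 338 (1.11). Psme1, a subunit of the proteasome activator, read 7266 and 6901 against 3227 to 3853 (1.01, adjusted p = 0.0129). In all 4 the Smc1 and condensin arrays did not overlap, which holds for every called gene.

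The peptide-loading machinery moved in the same direction. Tapbp, which holds MHC class I at the peptide transporter, read 4457 and 2968 against 739 to 1179 (1.81, SE 0.237, adjusted p = 0.0131). Erap1, which trims peptides in the endoplasmic reticulum, read 648 and 382 against 85 to 146 (2.11), and the transporter subunit Tap2 read 326 and 335 against 111 to 165 (1.22). Tap1 had a difference of 1.39 that missed the threshold (adjusted p = 0.0665), as did B2m, the light chain of MHC class I, at 0.87 (adjusted p = 0.0911). The class I heavy chain H2-D1 read 1856 and 1853 against 370.0 to 666 (1.88, SE 0.179, adjusted p = 0.0106), with 262 and 249.8 on the GFP arrays. H2-K1 read 3441 and 1899 against 874 to 1023 (1.42). Class I heavy chains are near-identical, and 2 dim probe sets of H2-D1 had differences of -0.10 and -0.28.

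Among the antiviral genes, the RNA sensor Ifih1 read 385 and 298 on the Smc1 arrays, against 39.7 and 5.67 with the CapH2 hairpins and 27.1 and 23.1 with the Smc2 hairpins, a difference of 3.23. Rtp4, a chaperone induced by interferon, read 437 and 219 against 3.57 to 45.9 (3.40). The chemokine Cxcl10 read 1804 and 751 against 44.1 to 160.3 (3.35, SE 0.493, adjusted p = 0.0174). Ifih1 and Rtp4 lay below the median on all condensin arrays and passed the filter through the Smc1 arrays alone, and over the alternatives their differences ranged from 2.21 to 4.04 and from 2.11 to 4.56. Zbp1, a sensor of Z-form nucleic acids, read 529 and 539 against 82.4 to 157 (2.12), and Ifi35 2996 and 2701 against 490.3 to 982 (2.04). The regulator Irf1 read 2732 and 2291 on the Smc1 arrays, 1122 and 737 with the CapH2 hairpins, 991 and 891 with the Smc2 hairpins and 824 and 839 with the GFP hairpin (1.42, SE 0.208, adjusted p = 0.0174). Irf2 (1.77), the receptor chain Ifngr2 (1.35) and the kinase Jak2 (0.98) rose as well. Other called genes of the 3 lists that rose were Rsad2, Oasl2, Ddx58 and Isg20. Irf9 (0.15, adjusted p = 0.752) and Stat2 (-0.44, adjusted p = 0.549), regulators of the type I interferon response, were not called. Both read higher on the GFP arrays than on any condensin array. The part of any interferon in these rises was not tested. Defining immune-cell markers were below the median on all 8 arrays for 4 of 6 genes (Ptprc, Lyz2, Cd3e and Itgam). Of the 2 others, Cd68 and Csf1r, 0 were called. The summed level of all 6 markers was 908 and 1424 on the Smc1 arrays against 476 to 1243 on the condensin arrays.

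**Figure D3:**
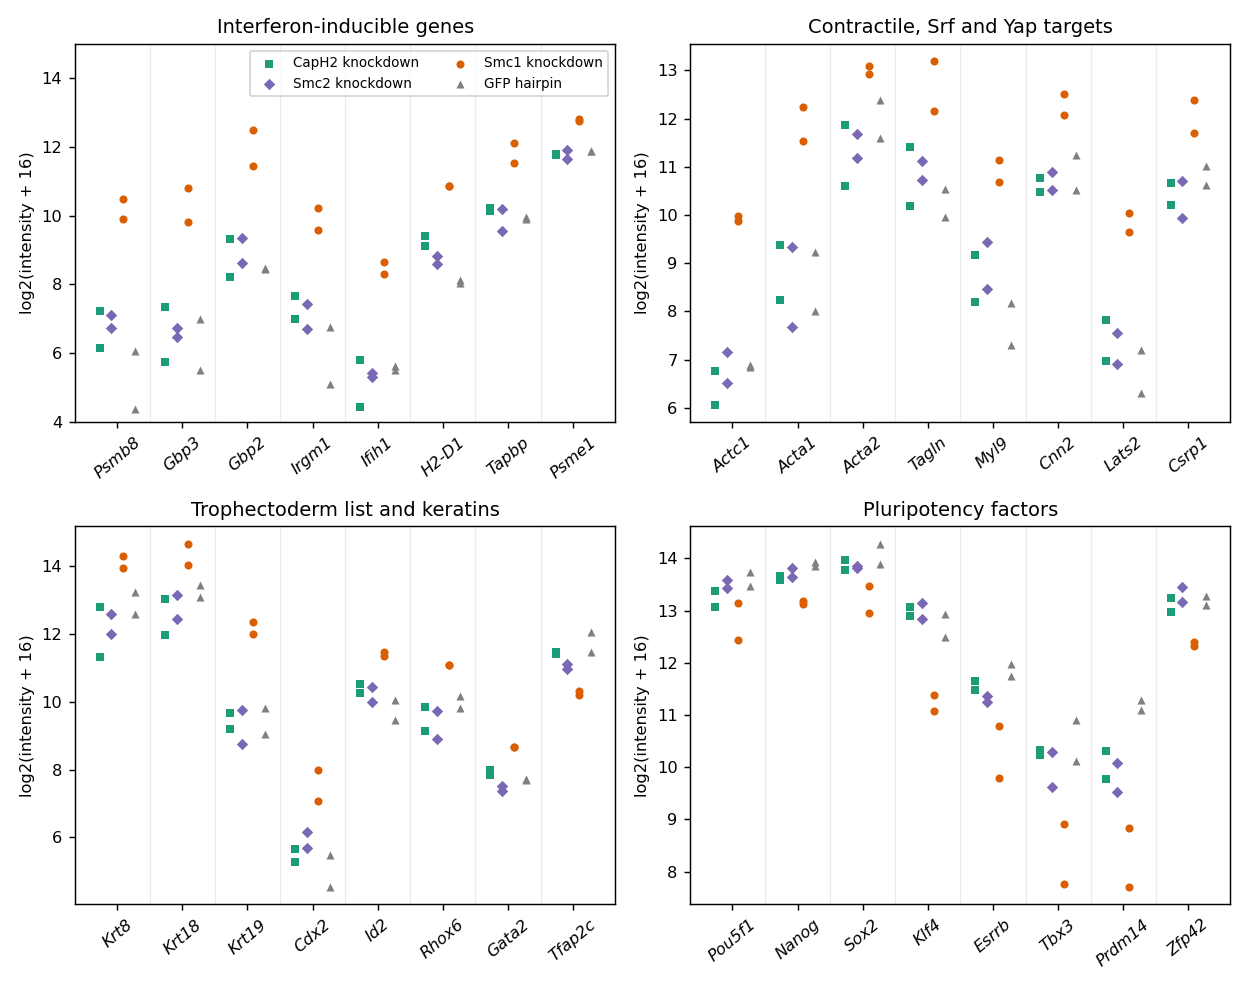
Values of 32 genes on each array, as log2(intensity + 16) on the y axis, in 4 panels of 8 genes: interferon-inducible genes, contractile and Srf or Yap target genes, trophectoderm genes and keratins, and pluripotency factors. Squares are CapH2, diamonds Smc2, circles Smc1 and triangles the GFP hairpin, 2 arrays each. The circles lie above the squares and diamonds for every gene of the first 2 panels. In the last panel they lie below them for every gene but Pou5f1.

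Genes of the contractile cytoskeleton formed the group with the highest number of calls, 18 higher and 0 lower of 32 tested (median 1.11). Many of them are textbook targets of Srf, which binds CArG boxes and is switched on by actin assembly, or of Yap, the Hippo pathway coactivator. In 27 of the 32 both Smc1 arrays lay above all condensin arrays, against 20.8% of all genes. Without an Smc1 replicate 0 were called, with medians of 0.99 (without replicate 1) and 1.37 (without replicate 2), and without CapH2 hairpin 4 there were 5. Without the filter on low values there were 11, with all probe sets of a gene averaged 8, and with moderation without an intensity trend 6.

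Actc1, the actin of heart muscle, read 995 and 921 on the Smc1 arrays, 92.3 and 51.1 with the CapH2 hairpins, 126 and 75 with the Smc2 hairpins and 98.4 and 102 with the GFP hairpin. The difference was 3.31 (SE 0.285, adjusted p = 0.00733), and the condensin and GFP arrays overlapped each other well below the Smc1 arrays. Skeletal actin, Acta1, read 2962 and 4824 against 190.1 to 651 (3.23, SE 0.484, adjusted p = 0.0174), and the smooth-muscle actin Acta2 8653 and 7799 against 1541 to 3715 (1.67). The GFP arrays read 3077 and 5350.4 for Acta2, so 1 of them exceeded the condensin arrays. The calponin Cnn2 read 5789 and 4308 against 1410.4 to 1878 (1.63, SE 0.192, adjusted p = 0.0129). Tagln (1.81), Myl9, the light chain of smooth-muscle myosin (2.09), Csrp1 (1.67) and the focal-adhesion genes Zyx (1.17) and Vcl (0.84) rose too. Lats2, the Hippo kinase that is itself a Yap target, read 1045 and 783 against 104 to 212 (2.53, SE 0.308, adjusted p = 0.0129). Its other probe sets, all dimmer, gave 2.58, 0.61, 0.53, 0.33 and -0.13. Srf itself was not called (0.59, adjusted p = 0.237), nor was the Yap target Ccn1 (1.75, adjusted p = 0.0561). Synpo2l, a protein of the sarcomere outside the list, read 835 and 287 against 5.28 to 48.7 (3.51); it too passed the filter through the Smc1 arrays alone, and a dimmer probe set gave -0.29.

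The promoters of Actc1 and Cnn2 are shown because each carries a CArG box, in capitals, close to its start. Actc1 lies on the minus strand at chr2:114052826-114053125 with the box 47 bases before the start, and Cnn2 on the plus strand at chr10:79988350-79988649 with the box 56 bases before it, in RefSeq windows of the same 300 bases on GRCm38.p6.
Actc1: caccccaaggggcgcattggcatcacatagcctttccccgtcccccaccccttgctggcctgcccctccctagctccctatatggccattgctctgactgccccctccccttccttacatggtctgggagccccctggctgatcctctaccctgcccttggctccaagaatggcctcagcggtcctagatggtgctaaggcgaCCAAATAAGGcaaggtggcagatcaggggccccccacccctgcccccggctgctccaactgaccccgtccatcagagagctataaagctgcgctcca
Cnn2: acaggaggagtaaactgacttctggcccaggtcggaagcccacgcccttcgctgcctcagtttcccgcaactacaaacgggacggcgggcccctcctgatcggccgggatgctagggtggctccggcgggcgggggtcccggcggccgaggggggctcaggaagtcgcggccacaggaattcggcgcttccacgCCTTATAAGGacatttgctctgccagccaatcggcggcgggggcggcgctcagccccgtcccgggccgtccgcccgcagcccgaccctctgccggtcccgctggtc
A CArG box occurred in 1.81% of all genes with a window, in 6 of the 17 called contractile genes with one (35.3%) and in 9 of the 27 tested ones (33.3%).

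Keratins and other genes of the trophectoderm, the outer layer that forms the placenta, were higher as well: 10 of 25 tested rose and 1 fell, with a median of 1.00, against 3.76%, 1.3% and 0.03 over all genes. The filter was met through the Smc1 arrays alone by 3 of the 25, of which 2 were called, and on at least 4 of 6 arrays 8 of 21 rose (median 0.96). Without an Smc1 replicate 0 were called, with medians of 1.00 and 1.04, and without CapH2 hairpin 4 there were 2 higher. Without the filter there were 3, and without the trend 4. Krt8, a keratin of simple epithelia, read 20014 and 15514 on the Smc1 arrays, 7081 and 2546 with the CapH2 hairpins, 4029.6 and 6178 with the Smc2 hairpins and 6143 and 9637 with the GFP hairpin (1.93, SE 0.364, adjusted p = 0.0293). Its partner Krt18 rose by 1.69 and Krt19 by 2.82, the latter at 5153 and 4039 against 412 to 849.6 (SE 0.293, adjusted p = 0.0113). Cdx2, a transcription factor that specifies trophectoderm, read 239.7 and 118 against 23 to 54.8, so it passed the filter through the Smc1 arrays alone (difference 1.84). Gata2 rose by 1.00, the helix-loop-helix inhibitor Id2 by 1.10 and the homeobox gene Rhox6 by 1.67.

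Other defining factors fell or were not called. Tfap2c, which trophectoderm shares with germ cells, fell, from 1975 to 2819 on the condensin arrays to 1150.4 and 1251 on the Smc1 arrays (-0.99, SE 0.148, adjusted p = 0.0174). Eomes (-0.30) and Hand1 (0.03) were not called, and Elf5 was below the array median on all 8 arrays. Gata3 (1.39), which passed the filter through the Smc1 arrays alone, and the keratin Krt7 (1.68) also missed the threshold. In these, both Smc1 arrays lay above all condensin arrays, as in 20.8% of all genes. Over the 9 trophectoderm markers the summed intensity was 49899 and 36164 on the Smc1 arrays, 10251 to 19598 on the condensin arrays and 19139 and 26847 on the GFP arrays, a sum that weights each marker by its brightness. In bulk RNA, more cells of a type and more RNA per cell cannot be told apart.

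Genes of the pluripotent state fell. Of 43 tested genes of the core and naive network 13 fell and 1 rose, with a median of -0.53, against 1.3% lower and 3.76% higher over all genes, and in 22 both Smc1 arrays lay below all condensin arrays against 14.7% of all genes. Without Smc1 replicate 1 the list had 0 calls and a median of -0.39, and without replicate 2 it had 1 call, Klf4, and a median of -0.56. The counts of lower genes were 4 without CapH2 hairpin 3, 3 without hairpin 4, 6 without the filter, 8 with all probe sets averaged and 2 without the trend.

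Klf4, a naive-state factor that acts below LIF and Stat3, read 2134 and 2660.2 on the Smc1 arrays, 8534 and 7639 with the CapH2 hairpins, 8977 and 7334 with the Smc2 hairpins and 5780.4 and 7842 with the GFP hairpin. The difference was -1.76 (SE 0.146, adjusted p = 0.00733), and a second probe set gave -1.59. Tbx3, another LIF-responsive factor, read 200.2 and 465 against 771 to 1278 (-1.79, SE 0.33, adjusted p = 0.0281), and its other probe sets gave -1.91 to 0.28. Prdm14, which restrains differentiation signals in naive cells, read 193 and 439 against 717 to 1247 (-1.65, adjusted p = 0.0351), and the GFP arrays, at 2159 and 2487, were above all the others. The nuclear receptors Esrrb (-1.14), Nr0b1 (-1.43) and Nr5a2 (-1.20), the dioxygenase gene Tet2 (-1.17), Tcl1 (-1.67) and Mybl2 (-0.97) fell too. Jam2, an adhesion gene of naive cells, read 548 and 852 against 2003 to 3521 (-1.99, SE 0.265, adjusted p = 0.0135), while a dim probe set gave 0.06.

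The core factors Nanog, Sox2 and Pou5f1 moved less than the genes just named, by amounts near the list median of -0.53. Nanog read 8879.8 and 9324 on the Smc1 arrays, 12295 and 12978 with the CapH2 hairpins, 12780.3 and 14410.3 with the Smc2 hairpins and 15590.0 and 14689.6 with the GFP hairpin (-0.52, SE 0.0952, adjusted p = 0.0274). Sox2 read 7896 and 11311 against 14068 to 16073 (-0.65, SE 0.144, adjusted p = 0.0464). Pou5f1, which encodes Oct4, read 5521 and 9012 against 8572 to 12279, so the groups overlapped, and its difference of -0.58 (SE 0.191) was not called (adjusted p = 0.125). Zfp42, a marker of naive cells, read 5081 and 5385 against 8026 to 11218 (-0.85, SE 0.13, adjusted p = 0.0176). Dppa5a, at 31637 and 35148 against 31723 to 37369, differed by -0.02. The gene in the list that rose was Cdh1, the epithelial cadherin (0.45, adjusted p = 0.0305), and it was not called after median centring. All 10 embryonic stem cell markers lay above the median on every array, with a summed intensity of 92894 and 109284 on the Smc1 arrays and 119946 to 137854 on the condensin arrays.

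Neural regulators were among the steepest falls from the condensin level, although their list as a whole had a median of -0.04. Over the list, the GFP mean minus the condensin mean had a median of -0.57, and the Smc1 mean minus the GFP mean a median of 0.60. Sox1, a factor of early neural cells, read 77.8 and 18 on the Smc1 arrays, 438 and 476 with the CapH2 hairpins, 542 and 210.0 with the Smc2 hairpins and 261 and 260.3 with the GFP hairpin (-2.86, SE 0.466, adjusted p = 0.0208). Olig2 read 75.5 and 181 against 496 to 671 (-2.07, SE 0.31, adjusted p = 0.0174), with 545 and 658 on the GFP arrays. Stmn2 (-0.84) and Ncam1 (-1.37) also fell, and the other 13 tested members, Pax6 (0.43) and Nes (0.55) among them, were not called. These 4 of 17 compare with 1.3% lower over all genes. Other probe sets of Ncam1, all dimmer, gave -1.87 to 0.77. With CapH2 hairpin 4 or either Smc1 replicate left out, 0 of the 4 called neural genes were called, and without the trend 1.

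Outside the lineage lists, Inhbb, the activin B subunit of the Nodal and activin pathway, had the steepest fall of all called genes. It read 47.9 and 67.3 on the Smc1 arrays, 874 and 581 with the CapH2 hairpins, 764 and 884 with the Smc2 hairpins and 624 and 545 with the GFP hairpin. The difference was -3.42, with the filter passed through the condensin arrays alone, while a dimmer probe set of the gene gave -0.16. In the same pathway Lefty2, a Nodal antagonist, rose (4118 and 2871 against 930.4 to 1883, difference 1.24, adjusted p = 0.0417), as did the convertase gene Furin (0.96). Id1 (1.08) and Id2 of the BMP pathway rose, and 3 of its 17 tested genes did in all, against 3.76% of all genes. The count was 1 without the filter, with probe sets averaged or without the trend, and 0 without CapH2 hairpin 4 or either Smc1 replicate.

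Nupr1, a transcription cofactor induced by cellular stress, read 140.4 and 126 on the Smc1 arrays, 965 and 2038 with the CapH2 hairpins, 1153 and 1451 with the Smc2 hairpins and 2595 and 1122 with the GFP hairpin (-3.19, SE 0.291, adjusted p = 0.00901). Its second probe set gave -2.93. Of 39 tested genes of the integrated stress and unfolded protein responses, 4 fell and 0 rose (median -0.34), against 1.3% lower over all genes. The others were Psat1 of serine synthesis, at 2958 and 3257 against 5773 to 9691 (-1.33, SE 0.194, adjusted p = 0.0174), the mitochondrial folate enzyme Mthfd2 (-1.35) and the transfer RNA synthetase Nars (-0.80), which are targets of Atf4. Without CapH2 hairpin 4 the list had 1 call, without CapH2 hairpin 3 it had 2, without Smc2 hairpin 2 it had 9, and with either Smc1 replicate left out it had 0. It had 1 without the trend, 6 with the replicate block, 8 with all 8 arrays in the fit and 13 with the Actb ratio as a covariate.

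Genes of DNA replication and nucleotide supply were shifted down as a list by small amounts. Of 51 tested, 36 had both Smc1 arrays below all condensin arrays, against 14.7% of all genes, and 0 had both above. Their median was -0.38, and it stayed between -0.34 and -0.45 under every alternative. Only 4 passed the test, against 1.3% lower over all genes: the helicase subunit Mcm4 (5993 and 6492 against 8878 to 10554, difference -0.60, SE 0.115, adjusted p = 0.03), Gins1 (-0.58), Rpa1 (-0.54) and the ribonucleotide reductase gene Rrm2 (10486 and 11644 against 15749 to 16527, difference -0.53, adjusted p = 0.0208). With CapH2 hairpin 3, CapH2 hairpin 4 or either Smc1 replicate left out, 0 were called, without Smc2 hairpin 2 there were 8, and over all alternatives the count ran from 0 to 16. In DNA repair, 2 of 49 genes tested were called, both lower, Chek1 (-0.76) and Fancd2 (-0.91), against 1.3% lower over all genes. The median of the 49 was -0.28, and 20 of them had both Smc1 arrays below all condensin arrays, against 14.7% of all genes. Neither the fits without the filter, with probe sets averaged or without the trend, nor those without either CapH2 hairpin or either Smc1 replicate, called any of the 49, and a dim probe set of Fancd2 gave 0.59. Cdkn1a, the cell-cycle inhibitor p21, rose from 1629 to 2396 on the condensin arrays to 5239 and 4976 on the Smc1 arrays (1.41, SE 0.19, adjusted p = 0.0135), with 2655 and 3487 on the GFP arrays, above all condensin arrays. Of the 34 tested p53 targets 3 rose, Ccng1 (0.54) and Sfn (1.85) being the others, and 0 fell, against 3.76% higher over all genes. The count was 1 without CapH2 hairpin 4, without the filter or without the trend, and 0 without either Smc1 replicate.

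Imprinted genes, expressed from 1 parental copy and often held in clusters that Ctcf and cohesin insulate, had 8 genes higher and 1 lower of 37 tested, with a median of 0.25, against 3.76%, 1.3% and 0.03 over all genes. With the filter on at least 4 of 6 arrays there were 7 higher of 33, with a median of 0.15. Meg3, a maternally expressed noncoding RNA, read 12504 and 12315 on the Smc1 arrays, 6373 and 5355 with the CapH2 hairpins, 6103 and 5196 with the Smc2 hairpins and 3953 and 2814 with the GFP hairpin (1.11, SE 0.123, adjusted p = 0.0122). Rian, from the same cluster, read 6969 and 5781 against 2119 to 3929 (1.23, SE 0.202, adjusted p = 0.0213). In both the GFP arrays lay below every condensin array. A pair of dim probe sets of Meg3 gave -0.01 and -0.03. Gnas rose by 0.76, Ndn by 0.93 and Plagl1 by 2.04, and Peg3 fell by 0.94. With all probe sets averaged 1 imprinted gene was higher, without CapH2 hairpin 4 also 1, without hairpin 3 there were 5, with median centring or without the filter also 5, without the trend 4, and with either Smc1 replicate left out 0.

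Neighbouring genes were examined by their order in the RefSeq gene table of GRCm38.p6, without coordinates. Of 12149 pairs of adjacent tested genes, 39 were both called higher, 4 both lower and 4 in opposite directions. There were 6 runs of 3 adjacent called genes, all higher. Of all genes tested 3.76% were called higher and 1.3% lower, so higher pairs and runs were the likelier ones. The numbers that these shares would give were not computed. Over the alternatives, members of the runs stayed called in between 5 of 17 (Diaph2) and 15 of 17 (Cryab, Hspb2 and 4933402E13Rik). One held Casd1 (0.86), Sgce (1.64) and Peg10 (1.80), of which Sgce and Peg10 are paternally expressed imprinted genes. Sgce read 1409.8 and 979 against 294 to 524, and Peg10 179.7 and 140.0 against 22.3 to 52.1, below the median on every condensin array. Another held 2310030G06Rik (1.71) with the small heat-shock genes Cryab and Hspb2, which lie head to head. Cryab, the alpha-B crystallin, read 7570.0 and 8846 on the Smc1 arrays against 675 to 1594 (2.94, SE 0.329, adjusted p = 0.0122), and Hspb2 1577 and 1532 against 271 to 537 (2.05, adjusted p = 0.0129). The protease inhibitors Serpinb9 (2.09), Serpinb9b (1.54) and Serpinb9g (1.74) formed a further run, but they are near copies whose probe sets may share signal. The epidermal genes Sbsn (0.94), Dmkn (1.47) and Krtdap (1.66) formed the next, and Krtdap was at like levels on the GFP arrays (190.3 and 349) and the Smc1 arrays (163 and 247). The remaining runs were Ldoc1 (1.35), 4933402E13Rik (2.17) and 3830417A13Rik (1.90), and Diaph2 (0.70), Pcdh19 (1.74) and Tspan6 (1.48).

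**Figure D4:**
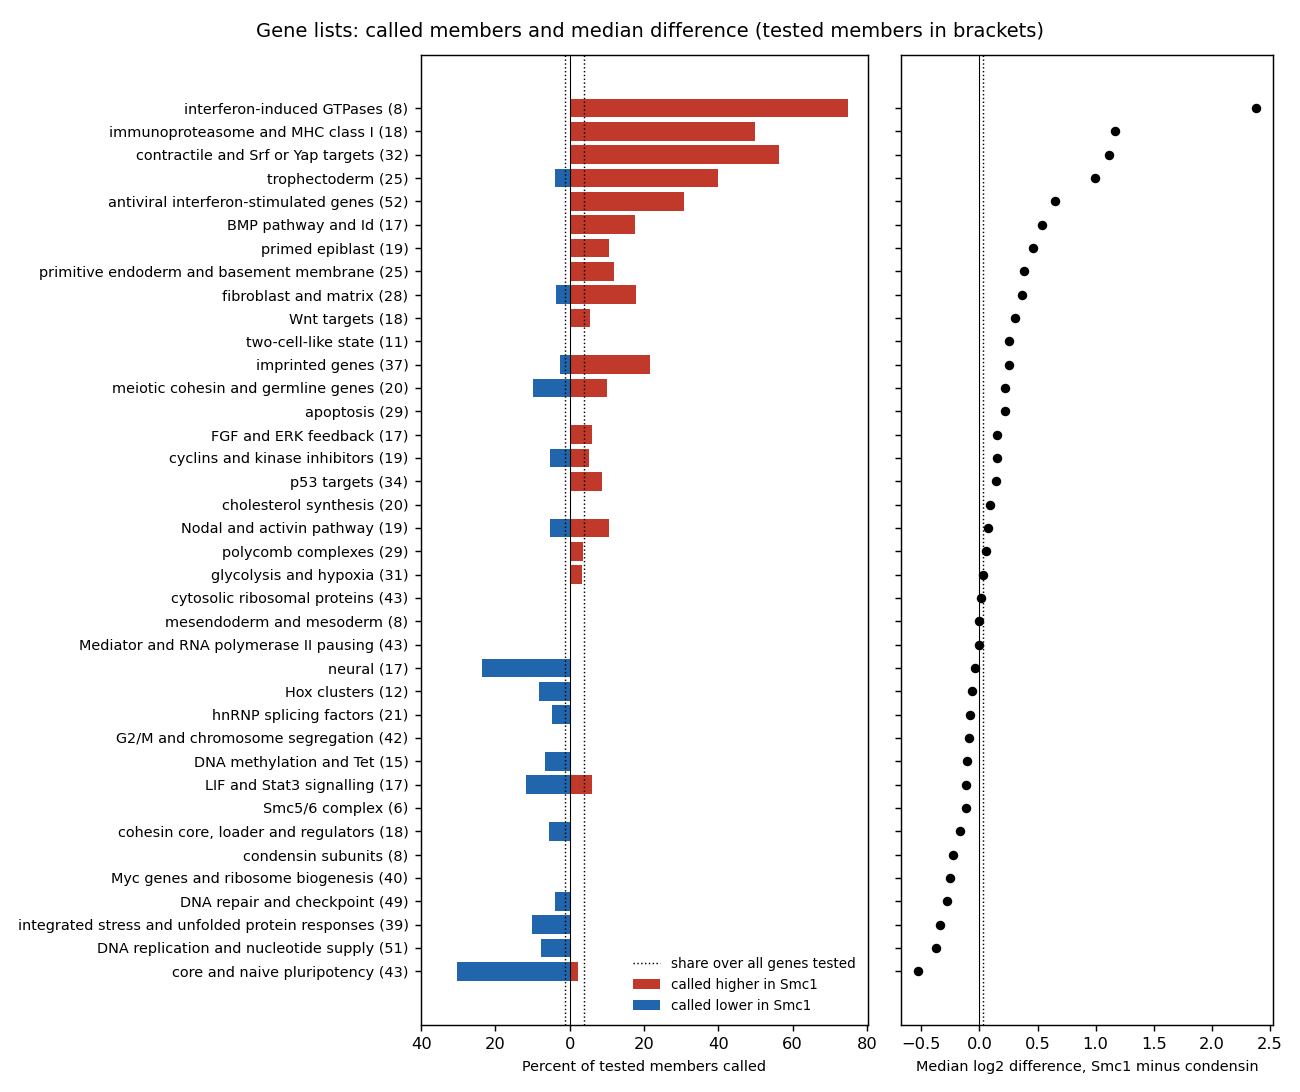
Left, percent of the tested members of each gene list called higher (red, to the right) or lower (blue, to the left) in the Smc1 knockdown, with dotted lines at the shares over all genes tested (3.76% and 1.3%). Right, the median log2 difference of each list, with a dotted line at the median of all genes (0.03); the interferon-induced GTPases (2.38) lie at the top and the core and naive pluripotency genes (-0.53) at the bottom.

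Several groups had 0 calls, and a p that misses the threshold does not show that they were alike. With limma, these were the G2/M and chromosome segregation genes (42 tested, median -0.09, 2 at an unadjusted p below 0.05), cytosolic ribosomal proteins (43, 0.01, 4) and the factors of Mediator and RNA polymerase II pausing (43, -0.01, 1). They also took in Myc genes and ribosome biogenesis (40, -0.25, with 9 at an unadjusted p below 0.05, all lower), apoptosis genes (29, 0.22, 10) and cholesterol synthesis genes (20, 0.09, 0). In the Myc and ribosome biogenesis list, 12 of 40 had both Smc1 arrays below all condensin arrays, against 14.7% of all genes. Over the alternatives its lower calls ran from 0 to 11, with most under the Actb ratio as a covariate. Genes of the two-cell-like state (11, 0.26, 3) and of the Smc5/6 complex (6, -0.12, 0) had 0 calls as well. Hnrnpll, a splicing regulator, read 5333 and 5142 on the Smc1 arrays, 4861 and 5578 with the CapH2 hairpins and 5654 and 4742 with the Smc2 hairpins (0.01, SE 0.13, adjusted p = 0.97), while the GFP arrays read 1450.4 and 1587. Of the fibroblast and matrix genes, which mark feeder cells, 5 of 28 rose and 1 fell (median 0.37), against 3.76% and 1.3% of all genes; Lgals1 (1.36) and Anxa1 (1.84) were among those that rose. The count of higher genes was 3 without the filter or with probe sets averaged, 1 without the trend, and 0 without CapH2 hairpin 4 or either Smc1 replicate. Of the 12 feeder markers only Col3a1 was called (1.61), and 4 (Col6a1, Dcn, Lum and Prrx1) were below the median on all 8 arrays. The uncalled ones went both ways. Postn (-1.41), Col1a2 (-0.66) and Thy1 (-0.43) had negative differences. Col1a1 (1.11), Pdgfrb (1.07), Pdgfra (0.54) and Twist1 (0.38) had positive ones. The summed intensity of all 12 was 1598 and 1380.1 on the Smc1 arrays against 842 to 1354 on the condensin arrays. The part of feeder cells in these genes was not tested.

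The GFP hairpin gives a level beside these differences. The called genes were chosen because Smc1 differed from condensin, so a GFP mean nearer to condensin is partly built in. The share of all genes with a GFP mean nearer to Smc1 was not computed. For the 458 genes that were higher, the GFP mean minus the condensin mean had a median of -0.13 and the Smc1 mean minus the GFP mean a median of 1.42. The GFP mean lay nearer to Smc1 than to condensin, or beyond Smc1, in 16 of the 458. For the 158 lower genes the medians were 0.01 and -1.01, and the GFP mean lay nearer to Smc1 or beyond in 8. The GFP mean lay beyond the condensin mean, away from Smc1, in 288 of the 458 and in 81 of the 158, against 51.0% of all genes. In 97 of the higher genes (21.2%), such as Meg3, H2-D1 and Id1, both GFP arrays lay below all condensin arrays, against 16.6% of all genes, and in 37 (8.08%), such as Cdkn1a, above them, against 13% of all genes. Of the lower genes, both GFP arrays lay below all condensin arrays in 25 (15.8%) and above them in 24 (15.2%). These positions are levels and not tests.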

How the data were processed

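Expression was measured on 8 one-colour Affymetrix arrays, and the 6 of the Smc1, CapH2 and Smc2 knockdowns entered the comparison. The authors deposited a linear intensity for each of 44903 probe sets on every array; how probes were combined was not given in the sources used here. Trimmed means (2%) of 488.9 to 490.0 show that the arrays were scaled alike, and no further normalization was added. Intensities were analysed as log2(value + 16). Probe sets with exactly 1 gene symbol (34771) were used, while 926 with several and 9206 with none were left out, as were 64 array controls. The probe set with the highest mean over the 6 arrays stood for each of 18140 genes. Group means were fitted in R 4.3.3 with limma 3.58.1 (two-sided, with moderation that follows a trend in intensity, residual degrees of freedom 3, prior 5.15). The fit was also run on simulated arrays with independent noise, which does not cover the likeness of condensin arrays across groups.

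Samples were grouped by their titles. Apart from biological replicates named for Smc1 and GFP, nothing in the labels says that arrays came from separate cultures, so p-values measure the spread between these arrays. The comparison and the 40 gene lists (927 genes tested) were chosen with earlier results of these data known, and a list's count and median describe it without a test of the list. The rule for named genes took the targeted genes, the 10 largest called differences each way, the 8 each way among genes above the array medians in both groups, up to 4 called members of each list by adjusted p, all genes of the cohesin and condensin lists, Pou5f1, Nanog, Sox2, Klf4, Esrrb, Cdkn1a, Ctcf and Hnrnpll, and runs of neighbours. Other called members of a list, uncalled members named for contrast and cell type markers were named after their values were seen.

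Of 101 named called genes, 62 had 126 other probe sets, of which 110 had the same sign. Replicate numbers did not pair the arrays: deviations of same-numbered Smc1 and Smc2 arrays correlated at 0.22 over 2 shared numbers, and the CapH2 hairpins share no number with the other groups. The differences within CapH2 (3 and 4) and within Smc2 (1 and 2) correlated at 0.42; whether these cultures were handled together is not given in the labels, and the fit has no term for it. Promoter windows came from RefSeq on GRCm38.p6. Alternatives covered normalization, the added constant, the filter, probe set averaging, the trend, all 8 arrays, the Actb ratio, a replicate block and leaving out each array.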

Additional observations from a re-analysis of the deposited data

How the results depend on the processing

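All 616 called genes kept their sign under each alternative in which they were tested, and the count kept within 1.5 times of 616 with quantile normalization (564), median centring (533), a constant of 1 (526) or 64 (755), a filter on at least 4 of 6 arrays (563) and without Smc2 hairpin 1 (744). In every called gene the Smc1 and condensin arrays did not overlap. Leaving out an array or changing the constant, the filter or the trend therefore could not alter a sign. The count left that range in the following. Without the filter there were 273 calls (204 higher, 69 lower; 2 against CapH2 alone and 4 against Smc2 alone). With all probe sets averaged there were 379 (278, 101; 48 and 14), and without the intensity trend 245 (194, 51; 3 and 1). With all 8 arrays in the fit there were 972 (694, 278; 391 and 434), and with the Actb ratio as a covariate 1431 (964, 467; 865 and 651). The replicate block, a random block on the number with a correlation of 0.23, gave 1050 calls (756, 294), the 616 included, and 736 against Smc2 alone. Leaving out 1 array at a time gave 1 to 986 calls (0 to 739 higher, 1 to 247 lower), 0 to 498 against CapH2 alone and 0 to 429 against Smc2 alone. The cause of these movements was not tested. With 1 array left in a group, the fit assumes that it varies like the others. Of 101 named called genes, Smc1a was called under all 17 alternatives and 37 under all that kept every array. With 2 arrays in a group Dixon's test for outliers could not be run. Depth is not defined for arrays; their number limits the precision, and 42 of the higher and 10 of the lower genes had a group mean below the highest array median.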
